A study of Mus musculus with 62 samples.

Results

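The genes described here are 10 immediate early genes of the mouse: Fos, Fosb, Junb, Egr1, Egr2, Egr3, Egr4, Arc, Npas4 and Nr4a1. They were chosen by symbol, not by their values in a comparison, though with earlier results of these data known. They were found through their Ensembl identifiers in the gene count tables of the nucleus accumbens (NAc), the prefrontal cortex (PFC) and the suprachiasmatic nucleus (SCN). All 10 had a row in the joint NAc and PFC table, which held 11569 genes. Only 5 of the 10 (Fos, Junb, Egr1, Arc and Nr4a1) had a row in the SCN table of 12047 genes. The submitters had removed genes of low abundance from each table. Fosb, Egr2, Egr3, Egr4 and Npas4 were not analysed in the SCN, and statements on the SCN cover the 5 measured genes and not all 10.

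The study asked how a disrupted light cycle changes later behaviour and gene expression. The mice were male and female C57BL/6J animals without a transgene. According to the labels they had been exposed to circadian rhythm disruption (CRD, repeated reversals of the light-dark cycle) in adolescence or in adulthood, or were handled as matching controls, and all were killed as adults about 4 weeks after that period. The methods of the study name adolescent CRD alone for the sequenced tissue, and this difference could not be settled here. Killing was at ZT6, in the middle of the light phase. The labels of the 62 libraries name the region and the number of the mouse, and neither the light schedule nor the sex, so no comparison of CRD with control mice was made. The libraries came from the NAc (n = 26), the PFC (n = 17) and the SCN (n = 19) of 26 mice, 1 library per mouse and region. The mouse numbers have a gap, with J1021 the last of a lower range and J1140 the first of an upper one.

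Immediate early genes are transcribed within minutes of a stimulus and without new protein synthesis. In neurons, synaptic input and calcium entry activate kinases such as those of the MAPK and CaMK pathways, which act on transcription factors already bound at the promoters, among them CREB at cAMP response elements and SRF at CArG boxes. Their transcripts are short-lived, so their level in tissue frozen at one moment reflects recent activity. In the SCN, the master clock of the brain, light at night induces several of them.

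Total counts per library were 28879724 to 60009482 for NAc libraries, 31216225 to 50333579 for PFC libraries and 16496666 to 35389742 for SCN libraries. Mitochondrial and ribosomal RNA took 45.4 to 75.2% of NAc counts, 49.5 to 67.2% of PFC counts and 31.5 to 66.3% of SCN counts. The regional markers were in place, with a summed level of 8 striatal projection neuron markers of 1589 to 3804 CPM (the usual depth-scaled read count, here after TMM scaling) in the NAc and 69.9 to 155 CPM in the PFC. The 6 cortical glutamatergic markers summed to 823 to 954 CPM in the PFC, and to 11.4 to 467 CPM in the NAc. The 8 SCN neuron markers were all in the SCN table and summed to 71.5 to 402 CPM. The library labelled SCN J1165 had 1403 Xist counts, against 23 (NAc) and 18 (PFC) in the other libraries with that number, and SCN J1199 had the highest striatal marker sum of the SCN (733 CPM), followed by SCN J1140 (336 CPM). For the SCN, the fold changes, SD and marker relations of Egr1, the counts of called genes and pairs, and some other values are therefore also given without these libraries. Likeness and pathway counts rest on all 19 SCN libraries. In these punches, fewer cells of a type and less RNA per cell cannot be told apart.

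The promoters are shown as background, since these genes share a way of induction. Windows of 7 of the 10 genes were taken from RefSeq (GRCm38.p6), and the 250 bases before each annotated start were searched on both strands for the cAMP response element core TGACG or its complement CGTCA, the full element TGACGTCA, and the CArG box. The core is contained in the full element. All 7 genes held the core before at least 1 start, as did 19.8% of 27025 mouse genes (17.8% of their 32851 windows). None of the 7 held the full element (1.77% of genes), and among them Egr2 alone held a CArG box (1.62% of genes) within these 250 bases. Arc, Egr1 and Egr3 were not searched, and elements farther from a start were not covered. Egr2 has 5 annotated starts, and the windows of 3 of them held the core. The stretches below run 5′ to 3′ on the strand of the gene, with cores and the CArG box in capitals. A match of letters is a description and not a binding site.
Fos (chr12:85473753-85473836, + strand): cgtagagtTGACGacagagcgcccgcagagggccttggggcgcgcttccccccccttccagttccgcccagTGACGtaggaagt
Fosb (chr7:19310093-19310113, - strand): gttgcgggTGACGcaagcgcg
Junb (chr8:84978842-84978862, - strand): cctgacagTGACGcgagccgc
Egr2 (chr10:67537750-67537826, + strand): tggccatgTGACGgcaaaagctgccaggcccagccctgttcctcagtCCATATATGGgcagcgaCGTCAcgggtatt
Egr4 (chr6:85513686-85513774, - strand): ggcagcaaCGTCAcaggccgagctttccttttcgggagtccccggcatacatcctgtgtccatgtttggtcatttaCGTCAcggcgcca
Npas4 (chr19:4990128-4990158, - strand): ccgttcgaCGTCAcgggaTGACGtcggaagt
Nr4a1 (chr15:101266605-101266818, + strand): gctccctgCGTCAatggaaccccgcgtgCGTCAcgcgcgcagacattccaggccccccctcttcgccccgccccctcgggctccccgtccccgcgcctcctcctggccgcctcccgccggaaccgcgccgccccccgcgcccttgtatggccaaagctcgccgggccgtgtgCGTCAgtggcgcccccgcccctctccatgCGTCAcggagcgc

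In the NAc, 6 of the 10 genes were lower than in the PFC and 4 did not pass the test. A gene was called at an adjusted p under 0.05 (edgeR quasi-likelihood test, Benjamini-Hochberg over all genes) and a fold change of at least 1.2. Libraries were treated as independent in this test, although 17 mice gave both regions. Fos, Npas4, Egr2, Egr3, Arc and Fosb were called, all 6 of 10 lower in the NAc, while 45.4% of all genes tested were called in either direction and 21.7% were called lower. Egr1, Egr4, Junb and Nr4a1 were not called. Levels below are in CPM on 1 scale over all 62 libraries, and fold changes come from the edgeR fit of the pair of regions.

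Fos and Fosb encode Fos proteins and Junb encodes a Jun protein, which pair to form the AP-1 transcription factor. Fos ranged from 0.442 to 10.8 CPM (median 2.79, 10 to 696 reads) in the NAc and from 2.19 to 27.8 CPM (median 6.04) in the PFC. The ranges overlapped, but 11 of the 26 NAc libraries lay below every PFC library. The log2 fold change of the NAc relative to the PFC was -1.33 (SE 0.26, adjusted p = 2.0e-05), and the NAc was the lower region in 17 of 17 mice with both. Fosb ranged from 1.87 to 5.55 CPM (median 3.37) in the NAc and from 2.103 to 8.13 CPM (median 3.89) in the PFC. Its log2 fold change was -0.35 (SE 0.13, adjusted p = 0.021), with the NAc lower in 10 of 17 mice, and this call was lost without PFC J1165, the highest PFC library (log2 fold change -0.26, adjusted p = 0.069). With the mouse number as a block, in the 17 mice with both regions, Fosb was also not called (log2 fold change -0.28, adjusted p = 0.10), nor in the upper range of mouse numbers alone (-0.26, adjusted p = 0.30). Junb ranged from 8.31 to 24.7 CPM (median 14.4) in the NAc and from 10.3 to 29.1 CPM (median 13.2) in the PFC, with a log2 fold change of -0.067 (SE 0.12, adjusted p = 0.65). Junb overlaps Prdx2 on the opposite strand, and reads of the 2 genes may not be separated in these counts.

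The Egr genes encode zinc finger transcription factors that bind a shared GC-rich element. Egr2, the lowest of the 10 per kb of exon in both regions, was at 0.423 to 4.85 CPM (median 1.05, 13 to 193 reads) in the NAc and 0.570 to 6.72 CPM (median 1.94) in the PFC. Its log2 fold change was -0.85 (SE 0.27, adjusted p = 0.0051), with the NAc lower in 11 of 17 mice, and the call was lost in the lower range of mouse numbers alone (-0.70, adjusted p = 0.15). Egr3 ranged from 17.7 to 46.8 CPM (median 28.1) in the NAc and from 34.9 to 62.8 CPM (median 48.0) in the PFC. Here 18 of 26 NAc libraries lay below all PFC libraries, and the log2 fold change was -0.67 (SE 0.11, adjusted p = 1.9e-06), with the NAc lower in 15 of 17 mice. The ranges of Egr1 and Egr4 overlapped. Egr1 had medians of 51.0 CPM (27.4 to 79.6) in the NAc and 57.4 CPM (29.7 to 91.3) in the PFC, and a log2 fold change of -0.18 (SE 0.12, adjusted p = 0.20). Egr4 had medians of 6.37 CPM (4.10 to 10.9) and 6.81 CPM (4.32 to 9.19), and a log2 fold change of -0.049 (SE 0.099, adjusted p = 0.68). In the mice with both regions Egr1 was called lower in the NAc with the mouse number as a block (log2 fold change -0.34, adjusted p = 0.033) and without it (-0.35, adjusted p = 0.020).

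Npas4, a transcription factor induced in neurons by calcium entry, ranged from 1.47 to 8.53 CPM (median 5.03) in the NAc and from 2.92 to 40.0 CPM (median 10.4) in the PFC. Its log2 fold change was -1.33 (SE 0.22, adjusted p = 1.2e-06), and the NAc was lower in 17 of 17 mice. Arc, which encodes a cytoskeletal protein of dendrites that acts in synaptic plasticity, ranged from 13.5 to 45.2 CPM (median 23.3) in the NAc and from 16.4 to 59.4 CPM (median 30.8) in the PFC. The regions overlapped widely, yet the NAc was lower in 17 of 17 mice, by a median ratio of 0.695, and the log2 fold change was -0.49 (SE 0.14, adjusted p = 0.0020). Nr4a1, an orphan nuclear receptor, had medians of 9.10 CPM (4.86 to 27.3) in the NAc and 11.1 CPM (8.58 to 28.7) in the PFC. It was not called (log2 fold change -0.28, SE 0.17, adjusted p = 0.14), but passed with the mouse number as a block (-0.38, adjusted p = 0.0034), without NAc J1021 (-0.38, adjusted p = 0.031) and without NAc J1177 (-0.36, adjusted p = 0.047). Nr4a1 was lower in the NAc in 15 of 17 mice, and 10 of 26 NAc libraries lay below every PFC library. With each of the 43 libraries left out in turn, 6 genes were called in 40 fits, 7 in 2 fits and 5 in 1.

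Cell types differed between the punches. All 8 striatal markers and all 5 oligodendrocyte markers were called higher in the NAc, and all 6 cortical glutamatergic markers were called lower. Their part in the differences of the early genes was not tested.

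**Figure D1:**
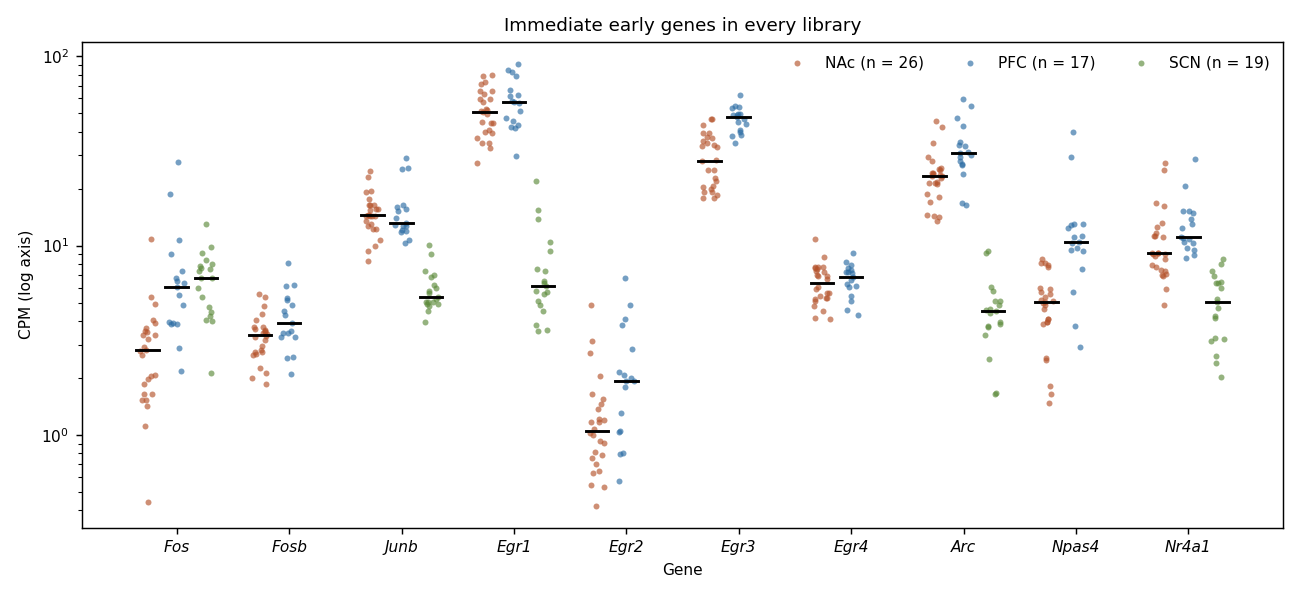
Level of each gene in CPM in every library (points, log axis), coloured by region, with the median as a black bar; 5 genes have no SCN values. Arc and Egr1 in the SCN lie below every NAc and PFC library, whereas Fos in the SCN reaches the levels of the PFC.

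In the SCN, Egr1, Arc, Junb and Nr4a1 were lower than in both other regions, and Fos was not. Against the NAc, 5 of the 5 measured genes were called, 4 lower and Fos higher, while 64.1% of all 11133 genes tested were called, 34.2% higher and 29.8% lower in the SCN. Against the PFC, 4 of 5 were called, all lower, while 64.8% of genes were called and 31.3% were lower. Region and table cannot be told apart here, since the SCN counts were deposited separately, and the 2 comparisons share the SCN libraries.

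Egr1 had a median of 6.10 CPM (3.53 to 21.9) in the SCN, and no SCN library reached the lowest NAc library. The log2 fold change was -2.72 (SE 0.18, adjusted p = 2.4e-18) against the NAc and -2.93 (SE 0.20, adjusted p = 4.1e-16) against the PFC. The 3 SCN libraries with the most Egr1 were J1199 (21.9 CPM), J1165 (15.3 CPM) and J1140 (13.8 CPM), the 3 libraries that are left out in turn below. Without J1199 and J1140 the log2 fold changes were -2.98 and -3.17, and without J1165 they were -2.81 and -3.01. Arc had a median of 4.51 CPM (1.64 to 9.39), also below every library of the other regions, with log2 fold changes of -2.33 (SE 0.16, adjusted p = 7.8e-18) and -2.84 (SE 0.18, adjusted p = 4.0e-17).

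Junb had a median of 5.37 CPM (3.96 to 10.1) in the SCN, and 17 of 19 SCN libraries lay below all NAc libraries. Its log2 fold changes were -1.31 (SE 0.11, adjusted p = 6.7e-15) against the NAc and -1.40 (SE 0.13, adjusted p = 4.3e-12) against the PFC. Nr4a1 had a median of 5.06 CPM (2.03 to 8.49), overlapped the NAc and stayed below all PFC libraries. Its log2 fold changes were -1.07 (SE 0.18, adjusted p = 9.2e-07) and -1.38 (SE 0.17, adjusted p = 3.1e-09). Both genes were lower in the SCN in 19 of 19 mice shared with the NAc and 12 of 12 shared with the PFC.

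Fos had a median of 6.78 CPM (2.12 to 13.1) in the SCN. It was higher than in the NAc by 1.17 on the log2 scale (SE 0.21, adjusted p = 2.6e-06), and the SCN was the lower region in 2 of 19 mice. Against the PFC Fos was not called (log2 fold change -0.20, SE 0.25, adjusted p = 0.48). The direction was not stable, since the value with the mouse number as a block was 0.19 (adjusted p = 0.53) and in the lower range of mouse numbers 0.074 (adjusted p = 0.83). Within the 12 mice with both regions, Fos was lower in the SCN than in the PFC in 3, with a median ratio of 1.44 and the smallest ratio in J1198 (0.192). Counts of called genes in the SCN were the same without J1165 and without J1199 and J1140, at 5 and 4.

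**Figure D2:**
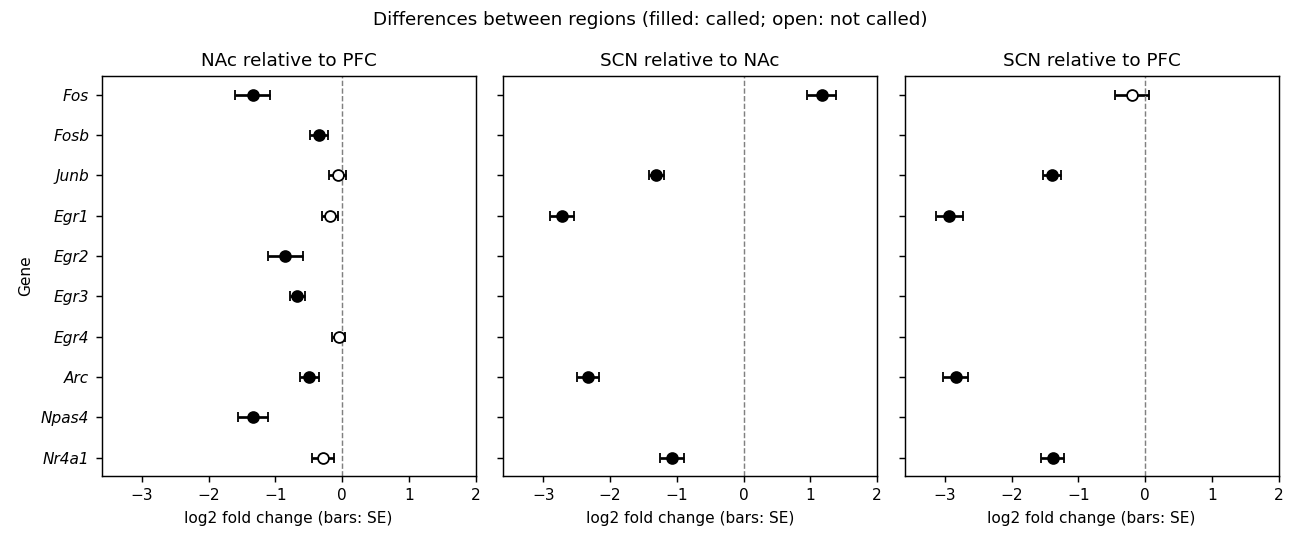
Log2 fold change of each gene between regions (points) with its standard error (bars); filled points passed the test and open points did not. In the SCN, the values of Egr1, Arc, Junb and Nr4a1 lie between -1.07 and -2.93, and Fos relative to the NAc is the only value to the right of 0 that passed.

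Divided by exon length, the order of the genes differed between regions. Egr1 had the highest median CPM per kb in the NAc (11.4) and the PFC (12.8), and the lowest of the 5 measured genes in the SCN (1.36), where Fos had the highest (2.88). In the NAc the order was Egr1, Arc, Egr3, Junb, Egr4, Nr4a1, Npas4, Fos, Fosb and Egr2, down to 0.308 CPM per kb. In the PFC it was Egr1, Egr3, Arc, Junb, Egr4, Nr4a1, Fos, Npas4, Fosb and Egr2, down to 0.570 CPM per kb. The ranges of neighbours in these orders overlapped everywhere but between Junb and Egr4 in the PFC. Neighbours were measured in the same libraries, so overlapping ranges do not show that their levels were alike. Whether neighbours differed within libraries was not tested.

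The early genes varied more between mice than most genes did. In the PFC, the SD of log2 CPM was 0.96 for Egr2, 0.92 for Fos and 0.89 for Npas4, above 99.8%, 99.8% and 99.7% of genes, where the median gene had an SD of 0.18. In the NAc the same 3 genes had the highest SDs of the 10, at 0.78 for Egr2, 0.85 for Fos and 0.69 for Npas4, against a median of 0.26. In the SCN, Egr1 (SD 0.72), Arc (0.64), Nr4a1 (0.61) and Fos (0.60) were above 92.4 to 95.8% of genes, and Junb (0.34) was above 63.1%. The SD of Egr1 was 0.68 without SCN J1165, 0.56 without J1199 and J1140, and 0.45 without all 3, and that of Arc was 0.53 without all 3. Egr3 in the PFC was the steadiest of the 10 in that region (SD 0.22), above 64.5% of genes. These are descriptions and depend on the level of a gene, since genes of few reads vary more.

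A small number of libraries held the extremes. In the NAc, J1021 was the highest library for 6 of the 10 genes and among the top 3 for 8. In the PFC, J1198 was the highest for 4 genes, with 27.8 CPM of Fos and 40.0 CPM of Npas4, and J1165 was second for both, at 18.8 and 29.3 CPM. J1141 was at the other end, lowest in the PFC for 4 genes and among the bottom 3 for 8, and among the bottom 3 of the NAc for 6. In the SCN, J1011 was the lowest library for 4 of the 5 genes, with 2.12 CPM of Fos and 1.64 CPM of Arc, but not for Egr1 (10.4 CPM).

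**Figure D3:**
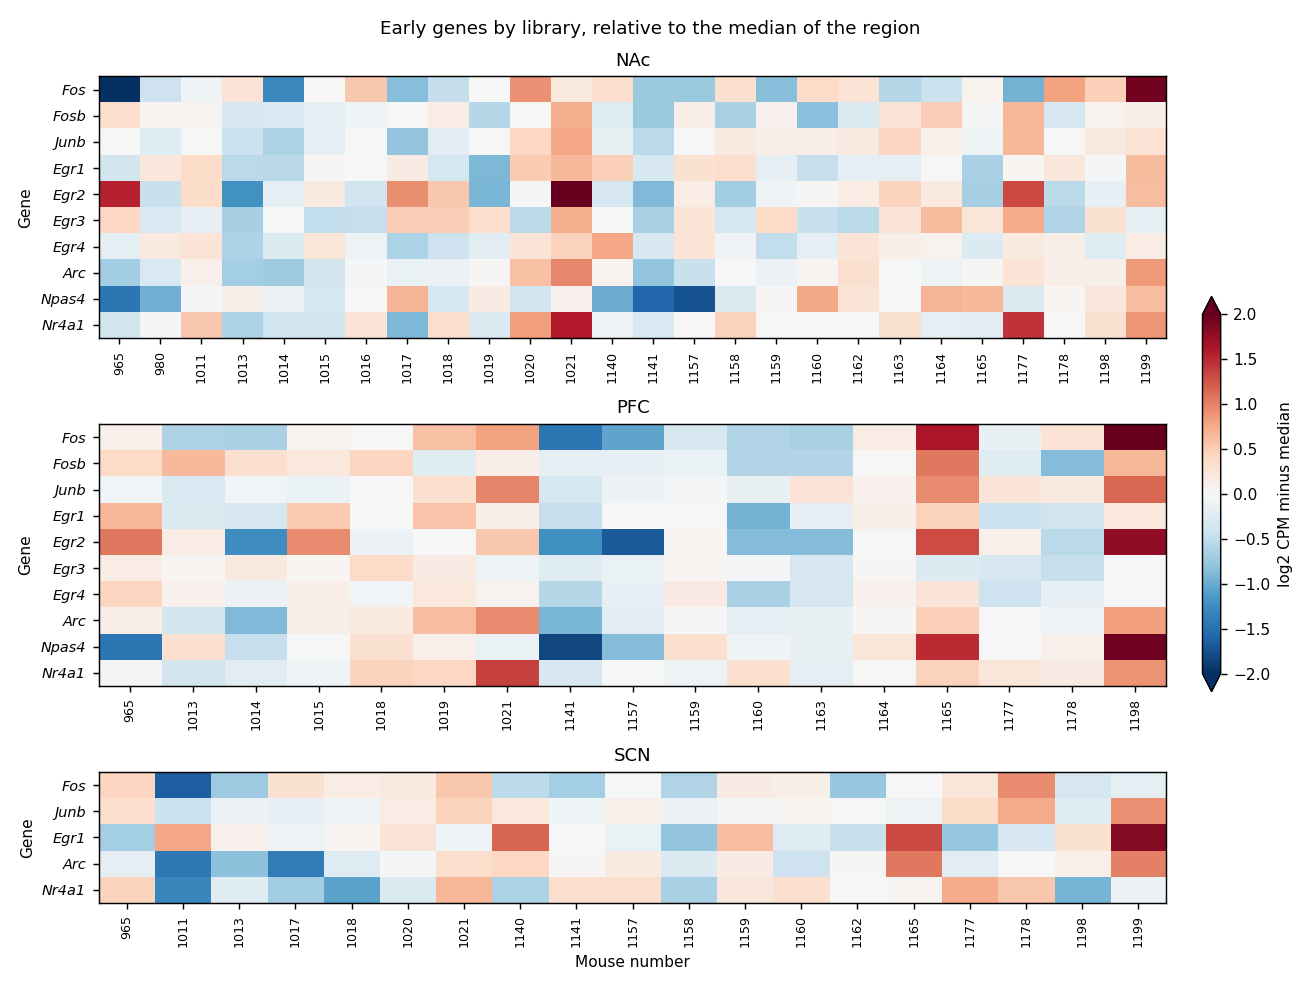
Log2 CPM of each gene minus its median in the region (colour, from -2 to 2), with 1 column per library in order of mouse number. NAc J1021 and J1177, and PFC J1165 and J1198, stand out as high columns, PFC J1141 and SCN J1011 as low ones, and SCN J1199 is high for Junb, Egr1 and Arc.

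Within a region, some of the genes moved together across mice. Each early gene was correlated with every gene of its table (Pearson r of log2 CPM, two-sided permutation test with 100000 resamples) and the p-values were adjusted over all such pairs of the region. In the NAc, 10 of the 45 pairs of early genes were called, while 9.09% of all 115635 pairs of an early gene with any gene were. The share called with genes outside the 10 differed by gene. It was 27.2% for Egr1, 24.3% for Egr3, 17.5% for Egr4, 12.9% for Fos and 5.85% for Fosb. For Egr2, Junb, Nr4a1, Arc and Npas4 it was 0.216 to 1.25%. Called NAc pairs of Egr1, Egr3, Egr4 or Fos are thus less particular to the early genes than the pooled share implies. In the PFC, 8 of 45 were called, while 0.827% of 115635 were. With values centred within each range of mouse numbers these were 4 of 45 and 0.0623% in the PFC. In the PFC, with values not centred, the share called with genes outside the 10 was 5.98% for Egr1 and 1.6% for Egr4. For the rest it was at most 0.285%. In the SCN, 0 of 10 were called by the permutation test of r, while 0.390% of 60220 pairs were called. At an unadjusted p under 0.05 there were 4 of the 10, and the share of all 60220 pairs at that threshold was not counted. Every called pair of early genes was positive. Pairs that share a gene are not independent of each other.

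In both the NAc and the PFC, Arc, Junb and Nr4a1 were called with each other, as was Egr1 with Egr4 and Fos with Arc. These 5 pairs are 50% of the called NAc pairs and 62.5% of the called PFC pairs. The share of all pairs of an early gene with any gene that were called in both regions was not counted. Junb with Nr4a1 was the highest pair of the NAc (r = 0.85, permutation p = 1e-05, the smallest that 100000 resamples give, adjusted p = 0.0018, rho = 0.83, permutation p = 2e-05). It was 0.77 without the 2 libraries farthest from the median, and 0.88 and 0.81 in the lower and upper range of mouse numbers. Arc with Nr4a1 had r = 0.75 (adjusted p = 0.0023) in the NAc and 0.84 (adjusted p = 0.023) in the PFC, and Junb with Arc had 0.74 and 0.80. Without NAc J1021, the NAc values of these 3 pairs were 0.81, 0.68 and 0.67.

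The highest pair of the PFC was Fos with Junb (r = 0.88, permutation p = 1e-05, adjusted p = 0.019, rho = 0.74, permutation p = 0.00088). It was 0.72 without the 2 libraries farthest from the median, 0.83 in the lower range and 0.95 in the upper range. In the PFC Fos was also called with Egr2 (r = 0.83), Arc (0.84) and Npas4 (0.78, adjusted p = 0.047). Fos with Npas4 depended on few libraries, since r was 0.49 (permutation p = 0.064) without the 2 farthest libraries, 0.67 without J1198, and -0.019 in the lower range against 0.95 in the upper range. By Spearman's rho, 0 of the 45 PFC pairs and 0 of the 115635 were called, with rho of 0.57 to 0.89 for the 8 pairs. The smallest permutation p is 1e-05, so a few strong pairs alone could not pass the adjustment over 115635. This count of 0 therefore says little about the 8 pairs. With any 1 library left out, the 8 pairs kept r of at least 0.67.

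In the NAc, Fosb, Egr2 and Egr3 were called with each other, at r = 0.75 for Fosb with Egr2, 0.71 for Fosb with Egr3 and 0.61 for Egr2 with Egr3. The lowest pair of the region was Fos with Egr3 (r = -0.47, permutation p = 0.015, adjusted p = 0.11, rho = -0.54, permutation p = 0.0055), which was not called. The summed striatal markers moved with Egr3 across NAc libraries (r = 0.79, permutation p = 1e-05), with Fosb (0.66, permutation p = 0.00037) and against Fos (-0.57, permutation p = 0.0029), while Egr2 had r = 0.41 (adjusted p = 0.19, permutation test). The summed cortical markers went the other way, with r = 0.68 for Fos and -0.72 for Egr3, and NAc J1199 had both the most cortical markers (467 CPM) and the most Fos (10.8 CPM, against 5.32 CPM in the next library). Without that library, r of Fos was 0.62 with the cortical and -0.42 with the striatal markers. Microglial markers had r = -0.64 with Fos and 0.59 with Egr3, and astrocyte markers -0.65 with Egr3. The sum of Vip and Syt10, the SCN neuron markers in the NAc table, had r = 0.87 with Egr3, 0.65 with Fosb and 0.56 with Egr2. Fos was lower in libraries with a higher share of mitochondrial and ribosomal RNA (r = -0.56). With all NAc libraries, the p-values of these relations other than that of Egr2 with the striatal markers, adjusted over all relations of early genes with marker sums, depth and RNA shares, were 0.0014 to 0.040 (permutation test). The part of cell composition in the pairs was not tested.

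Egr1 and Egr4 were paired in both regions, with r = 0.66 (adjusted p = 0.010) in the NAc and 0.87 (adjusted p = 0.019) in the PFC. Both were lower in libraries with a higher share of mitochondrial and ribosomal RNA, with r = -0.67 and -0.68 in the NAc and -0.72 and -0.72 in the PFC (adjusted p = 0.0067 to 0.023, permutation test). The part of the RNA share in this pair was not tested. Npas4 was in no called pair in the NAc, and Fosb and Egr3 were in none in the PFC, where the lowest pair was Junb with Egr3 (r = -0.22, adjusted p = 0.75).

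In the SCN the 4 pairs at an unadjusted p under 0.05 were Fos with Junb (r = 0.59, adjusted p = 0.19), Junb with Nr4a1 (0.59, adjusted p = 0.19), Fos with Nr4a1 (0.57, adjusted p = 0.21) and Junb with Arc (0.52, adjusted p = 0.28), all by permutation. The lowest was Egr1 with Nr4a1 (r = -0.31, adjusted p = 0.60). Egr1 followed the summed striatal markers across SCN libraries (r = 0.75, permutation p = 0.00028, adjusted p = 0.0081) and went against the summed SCN neuron markers (r = -0.67, adjusted p = 0.032). The first rested in part on J1199 and J1140, since r was 0.47 (permutation p = 0.055) without them and 0.36 (permutation p = 0.17) without J1165 as well. Its rho with all libraries was 0.64 (permutation p = 0.0035). The second was -0.52 without J1199 and J1140 and -0.54 without all 3. Nr4a1 followed the SCN neuron markers (r = 0.70, adjusted p = 0.020) and the astrocyte markers (r = 0.67, adjusted p = 0.032), at 0.86 and 0.66 without all 3 libraries. The part of these markers in the pairs was not tested. The count of called SCN pairs was 0 also without J1165 and without J1199 and J1140.

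**Figure D4:**
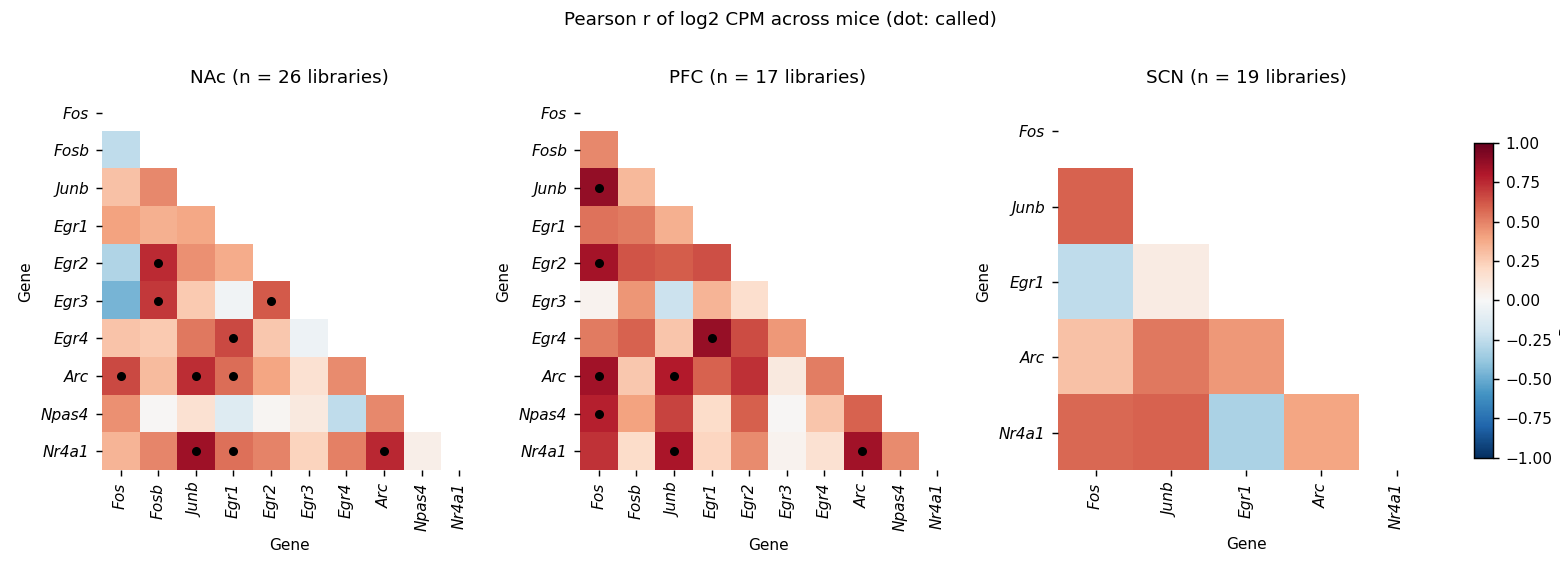
Pearson r of log2 CPM for each pair of early genes across the libraries of a region (colour, from -1 to 1), with a dot on called pairs. The NAc has 10 dots, the PFC 8 and the SCN none, and the lowest NAc value is Fos with Egr3 (-0.47).

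Between regions of the same mouse number, no early gene was called. Each gene's level in 1 region was correlated with its level in the other across mice (permutation test of r, adjusted over all genes). For the NAc with the PFC, 0 of 10 early genes and 0% of 11569 genes were called in 17 mice. At an unadjusted p under 0.05 there were 4 of 10 early genes (Npas4, Arc, Nr4a1 and Junb) and 9.00% of all genes. Of the 10, 8 had a positive r, with a median of 0.29, whereas 39.5% of all genes had a positive r and the median over all genes was -0.076. The 4 genes are themselves correlated with each other in part and are not 4 separate observations.

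Npas4 had r = 0.74 (permutation p = 0.00085, adjusted p = 0.30) and rho = 0.62 (permutation p = 0.0087) between the NAc and the PFC, higher than 99.9% of genes. It was 0.62 without the 2 farthest mice, 0.84 in the lower range and 0.72 in the upper range. J965, J1141 and J1157 had the least Npas4 of both regions, at 1.47 to 1.81 CPM in the NAc and 2.92 to 5.65 CPM in the PFC. Arc had r = 0.73 (permutation p = 0.00096, adjusted p = 0.30) and rho = 0.56 (permutation p = 0.021), with 0.84 and 0.69 in the 2 ranges, and at least 0.64 with any 1 mouse left out. Nr4a1 had r = 0.66 (permutation p = 0.0090, adjusted p = 0.44) and rho = 0.59, with 0.95 in the lower range and 0.22 in the upper range, and 0.40 (permutation p = 0.13) without J1021, the highest mouse in both regions. Junb had r = 0.55 (permutation p = 0.023, adjusted p = 0.47) and rho = 0.59, and 0.42 without J1021. Fos had r = 0.37 (permutation p = 0.14) and rho = 0.50 (permutation p = 0.045), and r was 0.57 (permutation p = 0.025) without the 2 farthest mice. Egr3, Egr2, Fosb, Egr1 and Egr4 lay between 0.21 and -0.14.

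**Figure D5:**
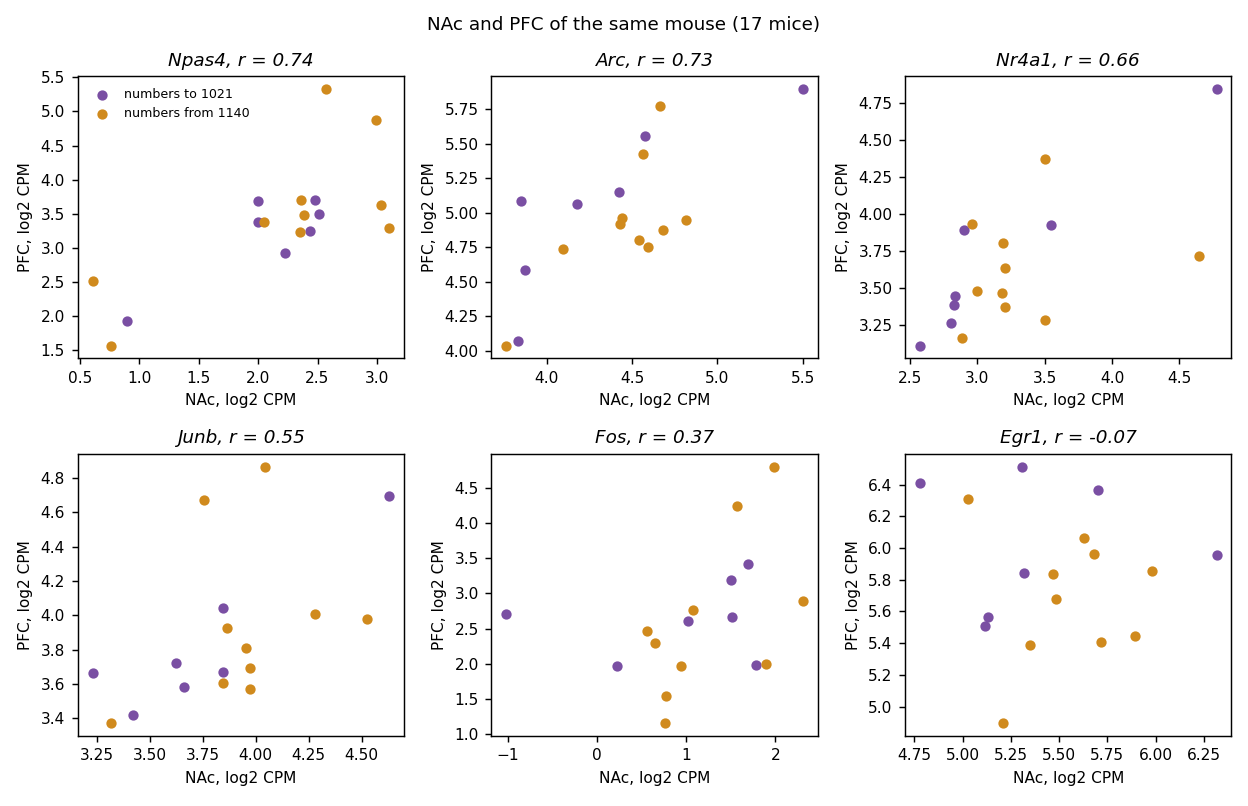
Log2 CPM in the NAc (x axis) and the PFC (y axis) of the same mouse for 6 of the genes, with 1 point per mouse and colours for the 2 ranges of mouse numbers. Npas4 rises along the diagonal with r = 0.74 and 3 mice at the lower left, and Egr1 has r = -0.068.

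For the SCN with the NAc (19 mice), 0 of 5 early genes were called against 0.0269% of 11133 genes, and r ran from -0.15 for Fos to 0.44 for Junb (permutation p = 0.056). For the SCN with the PFC (12 mice), 0 of 5 and 0% of genes were called, and r ran from -0.14 for Nr4a1 to 0.45 for Arc (permutation p = 0.14). No early gene reached an unadjusted p under 0.05 in either. For Arc, r with the NAc was 0.38 without SCN J1165 and 0.19 without SCN J1199 and J1140, against 0.34 with all mice. For Egr1, r with the NAc was 0.17 with all mice, 0.39 without SCN J1165 and -0.20 without SCN J1199 and J1140. The r of Egr1 with the PFC was 0.33, and 0.063 without SCN J1165.

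The genes most like the early genes in their pattern were picked by the median Pearson r with the measured early genes, as a description. In the PFC they were Btg2 (0.67), an antiproliferative factor, Dusp1 (0.63), a MAPK phosphatase, Arl4d (0.63), a small GTPase, and Rufy1 (0.62). Btg2, Dusp1 and Arl4d are on the list of other rapidly induced genes, as is Per1 below. In the NAc they were Ctxn1 (0.57), Mmp17 (0.56), Per1 (0.49), a clock gene that also responds rapidly to stimuli, Psmd3 (0.49), a proteasome subunit, and Col6a2 (0.48), a collagen chain. In the SCN they were Thbs2 (0.65), Cdkn1c (0.62), Gpsm2 (0.61), Nid1 (0.61) and Cflar (0.59), from 5 early genes in 19 libraries.

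Other genes of the pathway were counted from lists, beside the 45.4% of all genes called between the NAc and the PFC. Of 27 other rapidly induced genes, 70.4% were called, 4 higher in the NAc and 15 lower, with a median log2 fold change of -0.41 against 0.016 over all genes. Klf6, a zinc finger factor, was lower in the NAc by a log2 fold change of -1.55 (SE 0.085, adjusted p = 5.1e-21), Btg2 by -1.38 and Trib1, a pseudokinase, by -1.31. Of 14 genes of the delayed response, 3 were higher, 7 lower and 4 neither (median -0.49, 71.4% called). Nrn1, Bdnf, which encodes a secreted neurotrophic protein, and Ptgs2, a cyclooxygenase, had log2 fold changes of -3.66, -3.30 and -2.62. Of 6 genes that feed back on the response, 1 was higher and 4 were lower, with Dusp6, an ERK phosphatase, at -0.99, the kinase Sik1 at 0.94 and Dusp1 at -0.61. Sik1, Dusp1, Dusp6 and Crem of this list are also among the 27 rapidly induced genes, so the 2 counts are not separate. Of 22 upstream regulators, 7 were higher, 3 lower and 12 neither (median 0.15), and the 45.5% called was at the background, with the transcription factor Mef2c at -2.05 and the kinases Rps6ka5 and Camk4 at 1.77 and 0.95.

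Of 23 other rapidly induced genes tested in the SCN against the NAc, 11 were higher in the SCN, 5 lower and 7 neither (median log2 fold change 0.33), and the 69.6% called was near the 64.1% of all genes. Against the PFC, 5 were higher, 10 lower and 8 neither (median -0.20), and the 65.2% called was at the 64.8% of all genes. Btg2 was higher in the SCN than in the NAc and lower than in the PFC, with a log2 fold change of 0.72 (adjusted p = 3.8e-06) against the NAc and -0.69 (adjusted p = 0.0098) against the PFC. Sik1, which restrains CREB-driven transcription, was higher in the SCN than in both, by 2.25 and 3.17 on the log2 scale. Of the 22 upstream regulators, 16 were lower in the SCN than in the NAc and 17 lower than in the PFC (86.4% and 90.9% called in either direction), with Camk4 at -3.78 and -2.86. Markers of astrocytes (5 of 5) and blood (4 of 4) were called higher in the SCN than in both other regions, and microglial markers (5 of 5) lower. Their part in these differences was not tested.

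Mice of the upper and the lower range of numbers were compared because the numbers have a gap. What the ranges stand for is not given in the labels. In each region, libraries with high Xist counts were a larger share of the lower range than of the upper range. Sex, which Xist tracks, is thus not balanced between the ranges. Its part in values compared, split or centred by range was not tested. No early gene was called in any region by edgeR, and 0% of genes were called in each. At an unadjusted p under 0.05 there were 1786 of 11569 genes for the NAc, 1644 of 11557 for the PFC and 626 of 12047 for the SCN. DESeq2 called 62, 4 and 0 genes, none of them an early gene. Of the early genes, 0 of 10 in the NAc, 2 of 10 in the PFC (Egr3 and Egr4) and 1 of 5 in the SCN (Arc) had an unadjusted p under 0.05. These small counts were not tested against the shares over all genes. Egr3 was at a median of 53.3 CPM in the lower and 42.3 CPM in the upper range of the PFC, with a log2 fold change of -0.29 (SE 0.077, adjusted p = 0.24). No interaction of region and range passed the test in edgeR for the NAc and the PFC (lowest adjusted p = 0.28, Egr4).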

How the data were processed

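RNA of punched NAc, PFC and SCN of individual mice was made into SmartSeq HT libraries and sequenced as paired ends. Per the methods of the study, the authors checked reads with FastQC 0.11.7, aligned them with HISAT2 to GRCm38 and counted them with HTSeq. The deposited values are raw gene counts, with genes of low abundance and genes of the Y chromosome removed by the authors within each of 2 tables (NAc with PFC, and SCN). Whether the counting used strand is not given in the sources used here. The 10 genes and the pathway and marker lists were chosen with earlier results of these data known.

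Counts were scaled by TMM over all 62 libraries on the 11133 shared genes for levels and correlations (log2 CPM, prior count 2). Between regions and ranges of mouse numbers, edgeR 4.0.16 quasi-likelihood tests (TMM, filterByExpr) were fitted to all genes in R 4.3.3, and DESeq2 1.42.0 was an alternative. SCN comparisons used the shared genes. Correlations used two-sided permutation tests with 100000 resamples (all 5040 orders for 7 mice) in Python 3.11.15, tested on simulated data. Genes named besides the 10 were the 3 with the largest change per pathway list among those called between NAc and PFC, and the 5 with the highest median r per region, of which 1 in the PFC is not reported here. Pairs named beyond the highest and lowest of a region were chosen after their values were seen, as was leaving out libraries from the marker relations and SDs and leaving out each library in turn.

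Libraries with the same mouse number carry the same animal number in their labels, so they were paired in an alternative fit, though the Xist count of SCN J1165 goes against its number. The correlation of a mouse's deviations between regions, over all genes, had medians of -0.019 (NAc with PFC), 0.0026 (SCN with NAc) and 0.082 (SCN with PFC). No 2 libraries were identical. The p-values of the correlations and of the comparisons of number ranges measure the spread between mice. Those between regions, without the block, treat the libraries of a mouse with both regions as independent. Exon lengths and positions are from GENCODE M21.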

Additional observations from a re-analysis of the deposited data

How the results depend on the processing

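Across the alternative settings, 102 counts of genes or pairs called stayed within 1.5 times the reported count, as did all 43 counts with 1 NAc or PFC library left out (5 to 7 genes). A count of 0 that stayed 0 was taken as unchanged. This covers the comparisons of number ranges, the SCN pairs and the same-mouse tests. Such counts say little about stability, and the same-mouse counts of the lower range rest on 7 or 4 mice. The 6 counts that changed by more were counts of pairs. In the NAc 0 pairs were called in the lower range of mouse numbers alone and 1 in the upper range. In the PFC 0 were called in the lower range, 0 in the upper range, 0 by Spearman's rho and 4 with values centred within each range. Each range holds fewer mice, and with the 7 mice of the lower PFC range the smallest permutation p is 0.000198, so its count says nothing about stability. The 0 by Spearman's rho has a like limit, since with 100000 resamples a few strong pairs alone could not pass the adjustment. The cause of the other changes was not tested. Leaving out each library in turn was chosen after seeing the data.

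With the mouse number as a replicate block, 7 genes were called between the NAc and the PFC in place of 6 (Egr1 and Nr4a1 gained, Fosb lost). Without the block the same mice gave 6, with Egr1 gained and Fosb lost. With the block, Fos in the SCN relative to the PFC was 0.19 on the log2 scale, and the block changed no other call between regions. Among the other log2 fold changes, Fos in the SCN relative to the PFC was 0.074 in the lower range and Egr4 in the NAc relative to the PFC was 0.11 in the upper range.

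Correlations in the same mouse that changed sign are given here. For the NAc with the PFC, Egr1 was 0.033 in the lower range, 0.0047 in the upper range, 0.019 after centring, 0.061 without the 2 farthest mice and -0.20 to 0.11 with 1 mouse left out. Egr4 was 0.10 in the lower range, Egr2 -0.052 in the upper range and -0.043 without the 2 farthest mice, and Fosb -0.033 without them. For the SCN with the NAc, Fos was 0.0054 in the upper range, and Egr1 was -0.20 without SCN J1199 and SCN J1140 and -0.031 to 0.39 with 1 mouse left out. For the SCN with the PFC, Egr1 was -0.96 in the lower range of 4 mice and -0.076 without the 2 farthest mice. There Nr4a1 was 0.32 in the lower range, 0.50 without the 2 farthest mice and -0.50 to 0.12 with 1 mouse left out. Junb was -0.25 in the upper range, -0.29 without the 2 farthest mice and -0.16 to 0.33 with 1 left out, and Fos was -0.0057 to 0.52. Within the PFC, Fos with Npas4 was -0.019 in the lower range. Counting limits matter most for Egr2 and Fos in the NAc, with as few as 13 and 10 reads.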
